A study of Mus musculus with 11 samples.

Results

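Transcripts of 10 mouse enzyme genes that make, break down or interconvert ceramide, sphingosine and sphingosine 1-phosphate were followed in fed and fasted brain. The genes were Sptlc1, Sptlc2, Degs1, Ugcg, Smpd1, Sphk1, Sphk2, Sgpp1, Sgpp2 and Sgpl1. All array probes that the platform annotation pairs with exactly 1 of these symbols were taken, which gave 12 probes among 34999, or 10 genes among 18048. Sphk1 and Sgpp2 had 2 probes each and the other genes had 1. The genes were picked for their fasting changes on these arrays, so their values are a description and carry no test.

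The RNA came from wild-type female mice of the SV/129 strain aged 10 weeks. Food was taken from 6 mice when the dark phase began, and they were killed 16 hours later together with 6 mice that had kept chow. RNA of the 6 mice was combined for each feeding state and region, and each of the 4 pools was labelled and hybridised to 3 single-colour CodeLink arrays. The 11 arrays were 3 of fed hypothalamus, 3 of fasted hypothalamus, 3 of fed cerebellum and 2 of fasted cerebellum, since 1 array of fasted cerebellum had failed quality control. Arrays of a group repeat the same pool, so their spread is technical and every comparison below is between pools and not between mice. In such bulk RNA, fewer cells of a type and less RNA per cell cannot be told apart.

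Sphingolipids are built on a sphingoid backbone that serine palmitoyltransferase starts in the endoplasmic reticulum from serine and a fatty acid. Ceramide, the product of that route, is turned into sphingomyelin and glycosphingolipids, which are abundant in myelin and neuronal membranes, or is cut to sphingosine. Sphingosine kinases phosphorylate sphingosine to sphingosine 1-phosphate, a signal read by cell surface receptors, which phosphatases return to sphingosine and a lyase destroys for good.

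The deposited values are ratios of each probe to the median of the fed arrays of its own region. They hold no signal intensity, so no level can be set against another probe or the other region, and the tissue labels could not be checked by the level of their markers. Each array was divided by its median, and the result is called the scaled ratio here, with 1 as the fed median. Fasted arrays had medians of 0.964 to 0.986 before this step. Repeat arrays of a pool differed with a median SD per probe of 0.06 to 0.09 log2. Changes are log2 fasted minus fed ± SE from a limma fit of all 11 arrays, and a probe was called at a Benjamini-Hochberg adjusted p under 0.05 over the 34999 probes.

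Sgpp1 encodes sphingosine 1-phosphate phosphatase 1, an enzyme of the endoplasmic reticulum that returns sphingosine 1-phosphate to sphingosine. In fed cerebellum its scaled ratios were 0.997, 1.09 and 1.00. In fasted cerebellum they were 0.377 and 0.381. Both fasted arrays lay far below all fed arrays, and a gap of 1.39 log2 separated the groups. The change was -1.44 ± 0.05 log2 (95% interval -1.56 to -1.31), or 2.71-fold lower in the fasted pool. Sorted from the lowest change in cerebellum, Sgpp1 stood at place 106 of 34999 probes.

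In hypothalamus the same probe read 1.04, 0.956 and 1.00 when fed and 0.983, 0.958 and 0.949 when fasted. The groups overlapped there, and the change of -0.05 ± 0.05 (95% interval -0.16 to 0.06) was not called. The hypothalamus change minus the cerebellum change was 1.39 ± 0.07 log2 for Sgpp1, the largest such difference among the 12 probes.

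Sgpl1 encodes sphingosine 1-phosphate lyase, which cleaves sphingosine 1-phosphate irreversibly and is the exit from the sphingolipid pathway. Its scaled ratios in cerebellum were 0.991, 1.00 and 1.03 fed against 0.479 and 0.522 fasted. Both fasted arrays lay below all fed arrays, with a gap of 0.92 log2 between the groups. The change was -1.01 ± 0.07 log2, or 2.01-fold lower (-50.3%), at place 362 from the lowest of all probes. In hypothalamus Sgpl1 read 1.08, 1.00 and 0.934 fed against 0.975, 0.978 and 0.924 fasted. These groups overlapped and the change of -0.07 ± 0.06 was not called. The 2 regions differed by 0.94 ± 0.09 log2.

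Ugcg encodes ceramide glucosyltransferase, which adds glucose to ceramide in the Golgi as the first step to most glycosphingolipids. In cerebellum it read 1.00, 1.03 and 0.879 fed against 0.557 and 0.509 fasted. The change there was -0.86 ± 0.10 log2, or 1.82-fold lower. In hypothalamus it read 1.01, 1.00 and 0.862 fed against 0.793, 0.747 and 0.718 fasted. The fasted arrays were below the fed arrays in both regions, by a gap of 0.66 log2 in cerebellum and 0.12 in hypothalamus. The hypothalamus change was -0.35 ± 0.09 log2, or 1.27-fold lower, and the regions differed by 0.52 ± 0.13. Of the 12 probes, Ugcg alone was called lower in both regions, as were 1.61% of all probes. Its hypothalamus call was lost when any of fed arrays 1 and 2 or fasted arrays 2 and 3 of that region was left out, with changes between -0.42 and -0.30 over the 11 omissions. The call of its regional difference was lost without hypothalamus fasted array 1, cerebellum fed array 1 or 2, or cerebellum fasted array 2, with values from 0.44 to 0.59.

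Sptlc1 and Sptlc2 encode the large subunits of serine palmitoyltransferase, the first and rate-limiting enzyme of the route. Sptlc1 read 1.00, 1.01 and 0.987 in fed cerebellum and 0.756 on both arrays of fasted cerebellum. The fasted arrays were below the fed ones by a gap of 0.39 log2, and the change was -0.40 ± 0.04, or 1.32-fold lower. Hypothalamus gave 1.02, 1.00 and 0.990 fed against 1.05, 1.01 and 0.977 fasted, which overlapped, with a change of 0.01 ± 0.04. The regional difference of Sptlc1 was 0.42 ± 0.06 log2.

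Sptlc2 pairs with Sptlc1 in the same enzyme but did not show its pattern. It read 1.00, 1.04 and 0.949 in fed cerebellum against 1.07 and 1.10 in fasted cerebellum. The fasted arrays were slightly above the fed arrays, and the change of 0.13 ± 0.06 (95% interval -0.02 to 0.27) was not called. In hypothalamus the change was 0.09 ± 0.06, with overlapping groups. The difference in change between the 2 subunits was not tested.

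**Figure D1:**
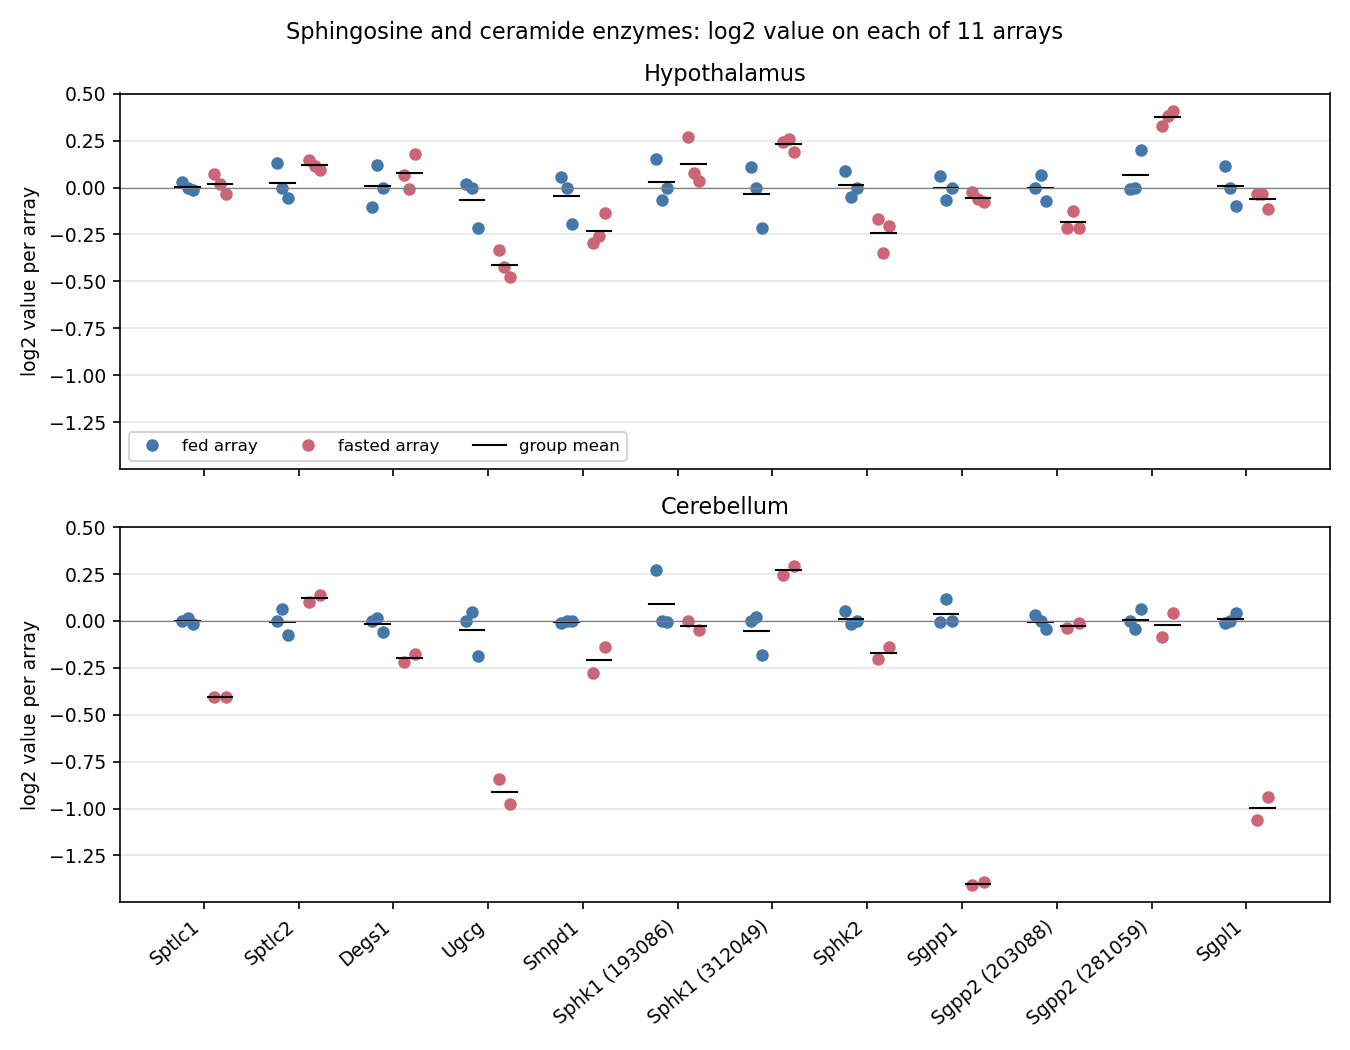
Log2 of the scaled ratio of each of the 12 probes on each of the 11 arrays, hypothalamus above and cerebellum below. Points are arrays, bars are group means and 0 is the fed median. In cerebellum the 2 fasted arrays of Sgpp1, Sgpl1, Ugcg and Sptlc1 lie below the 3 fed arrays, with mean changes of -1.44, -1.01, -0.86 and -0.40, while in hypothalamus no probe changed by more than 0.35 in size.

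The 250 bases before the transcription start of the 4 genes called lower in cerebellum are printed here, from RefSeq's GRCm38.p6 annotation. Sgpp1 lies at chr12:75735730-75735979 on the minus strand, Sgpl1 at chr10:61147685-61147934 on the minus strand, Ugcg at chr4:59189300-59189549 on the plus strand and Sptlc1 at chr13:53377362-53377611 on the minus strand. Each is written 5′ to 3′ with the start site just after its end, and capitals mark GC boxes (GGGCGG on either strand) and CCAAT boxes (CCAAT on either strand).
Sgpp1: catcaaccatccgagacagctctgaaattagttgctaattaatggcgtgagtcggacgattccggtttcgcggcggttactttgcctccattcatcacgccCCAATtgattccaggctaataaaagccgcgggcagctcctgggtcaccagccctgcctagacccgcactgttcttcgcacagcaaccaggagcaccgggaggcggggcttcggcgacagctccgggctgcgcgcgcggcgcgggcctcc
Sgpl1: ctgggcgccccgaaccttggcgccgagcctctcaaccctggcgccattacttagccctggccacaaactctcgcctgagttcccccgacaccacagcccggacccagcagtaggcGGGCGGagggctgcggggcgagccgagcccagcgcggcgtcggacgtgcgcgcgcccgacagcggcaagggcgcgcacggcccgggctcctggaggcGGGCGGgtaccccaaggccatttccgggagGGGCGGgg
Ugcg: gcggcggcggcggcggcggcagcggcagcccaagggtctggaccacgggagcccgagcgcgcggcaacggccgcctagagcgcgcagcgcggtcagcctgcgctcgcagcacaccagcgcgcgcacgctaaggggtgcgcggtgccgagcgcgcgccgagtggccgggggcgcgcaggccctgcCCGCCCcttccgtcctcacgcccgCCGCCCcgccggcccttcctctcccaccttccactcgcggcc
Sptlc1: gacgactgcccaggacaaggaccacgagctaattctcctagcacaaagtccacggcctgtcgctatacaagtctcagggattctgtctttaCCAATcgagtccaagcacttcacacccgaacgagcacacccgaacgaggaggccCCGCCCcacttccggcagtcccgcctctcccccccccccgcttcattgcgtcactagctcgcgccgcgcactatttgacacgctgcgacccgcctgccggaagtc
The Sgpp1 window held 1 CCAAT box and no GC box, with a GC content of 61.2%. The Sgpl1 window held 3 GC boxes (GC content 74.8%), the Ugcg window 2 GC boxes (80.4%) and the Sptlc1 window 1 of each box (61.6%). Over all 32851 RefSeq windows of 250 bases the median GC content was 52.4%, and 32.7% held a GC box and 33.8% a CCAAT box. The E-box CACGTG, present in 6.02% of all windows, the sterol regulatory element TCACNCCAC, present in 1.05%, and the endoplasmic reticulum stress element, a CCAAT box spaced from CCACG and present in 0.113%, had 0 matches in these 4 windows on either strand. Among the other enzymes, the Smpd1 window held 4 GC boxes, that of Sgpp2 3 and that of Sptlc2 2. Windows of Sphk2 held 1 and 2, and those of Degs1 and Sphk1 held 0. An E-box occurred in the windows of Degs1 and Sgpp2 and in some of Sphk1. A match, or its lack, describes these letters only and not the binding of a factor.

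Degs1 encodes the desaturase that turns dihydroceramide into ceramide. Its cerebellum ratios were 1.00, 1.01 and 0.960 fed against 0.859 and 0.885 fasted, which did not overlap, and the change of -0.18 ± 0.08 was not called. In hypothalamus the groups overlapped, at 0.932, 1.09 and 1.00 fed against 1.05, 0.993 and 1.13 fasted, with a change of 0.07 ± 0.07. Its regional difference of 0.26 ± 0.10 was not called.

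Smpd1 encodes acid sphingomyelinase, which frees ceramide from sphingomyelin in lysosomes. It read 0.993, 1.00 and 1.00 in fed cerebellum against 0.824 and 0.907 in fasted cerebellum. Hypothalamus read 1.04, 1.00 and 0.873 fed against 0.815, 0.835 and 0.910 fasted. The groups were apart in cerebellum and overlapped in hypothalamus, and neither change, -0.21 ± 0.08 and -0.18 ± 0.07, was called. The 2 changes differed by 0.02 ± 0.11.

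The sphingosine kinases Sphk1 and Sphk2, which make sphingosine 1-phosphate, gave small changes. One Sphk1 probe (312049) read 1.00, 1.02 and 0.882 in fed cerebellum against 1.18 and 1.23 in fasted cerebellum, and 1.08, 1.00 and 0.861 in fed hypothalamus against 1.18, 1.20 and 1.14 in fasted hypothalamus. The fasted arrays were above the fed arrays in both regions. Its change in cerebellum was 0.32 ± 0.10, or 1.25-fold higher and called, and that in hypothalamus was 0.27 ± 0.09 and not called. The cerebellum call was kept in only 2 of the 11 omissions of 1 array, those of hypothalamus fed array 1 and hypothalamus fed array 3, with changes between 0.26 and 0.36.

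The other Sphk1 probe (193086) did not share that pattern. It read 1.21, 1.00 and 0.998 in fed cerebellum against 0.999 and 0.967 in fasted cerebellum, and the groups overlapped in cerebellum and in hypothalamus. Its changes were -0.11 ± 0.11 in cerebellum and 0.10 ± 0.10 in hypothalamus, so the direction of Sphk1 in cerebellum differed between its 2 probes. Fed cerebellum array 1, at 1.21, stood above the other arrays of that probe in cerebellum.

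Sphk2, whose product acts in the nucleus and mitochondria as well, read 1.06, 0.966 and 1.00 in fed hypothalamus against 0.889, 0.785 and 0.867 in fasted hypothalamus. All fasted arrays were below all fed arrays, and the change of -0.25 ± 0.06, or 1.19-fold lower, was called. In cerebellum it read 1.04, 0.988 and 1.00 fed against 0.868 and 0.909 fasted, again without overlap. That change was -0.18 ± 0.07 and was not called, and the difference of -0.07 ± 0.09 between regions was not called. The hypothalamus call was lost without hypothalamus fed array 1, fasted array 2 or fasted array 3, with changes from -0.29 to -0.20 over the omissions.

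Sgpp2 encodes the second sphingosine 1-phosphate phosphatase, and its 2 probes moved in opposite directions in hypothalamus. Probe 203088 read 1.00, 1.05 and 0.951 fed against 0.862, 0.918 and 0.861 fasted there. Probe 281059 read 0.996, 1.00 and 1.15 fed against 1.26, 1.30 and 1.33 fasted. Neither probe's groups overlapped, and the changes of -0.18 ± 0.05 and 0.31 ± 0.07 were both called, so no direction can be given for the gene. Probe 203088 kept its call in only 2 of 11 omissions, those of the third fed array of either region, with changes from -0.22 to -0.15. Probe 281059 lost its call without hypothalamus fed array 1 or 2 or fasted array 2 or 3, with changes from 0.27 to 0.38.

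In cerebellum, where the Sgpp1 probe fell 2.71-fold, neither Sgpp2 probe was called. Probe 203088 read 1.02, 1.00 and 0.972 fed against 0.975 and 0.992 fasted, a change of -0.02 ± 0.05 (95% interval -0.14 to 0.10). Probe 281059 read 1.00, 0.969 and 1.05 fed against 0.941 and 1.03 fasted, a change of -0.03 ± 0.07 (95% interval -0.20 to 0.14). Fed and fasted arrays overlapped for both. The regional difference was -0.16 ± 0.07 for the first probe, not called, and 0.34 ± 0.10 for the second, called but kept in only 1 of 11 omissions, that of hypothalamus fed array 3, with values from 0.27 to 0.40.

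Counted over the 12 probes, 1 was called higher and 4 lower in cerebellum, where 20.9% of all probes were called (9.66% higher and 11.2% lower). In hypothalamus 1 was called higher and 3 lower, with 14.2% of all probes called (6.34% higher and 7.89% lower). For the hypothalamus change minus the cerebellum change 5 probes were called higher and 0 lower, with 17.7% of all probes called, 8.66% higher and 9.01% lower. Fed and fasted arrays did not overlap for 9 of the 12 probes in cerebellum, 2 higher and 7 lower, against 50% of all probes (25.1% higher and 24.9% lower), and for 5 in hypothalamus, 2 higher and 3 lower, against 37.3% (17.8% higher and 19.5% lower). The median change was -0.18 in cerebellum and -0.02 in hypothalamus, beside 0.01 and 0.00 over all probes. Since the genes were chosen on these contrasts, nothing is read from these counts.

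**Figure D2:**
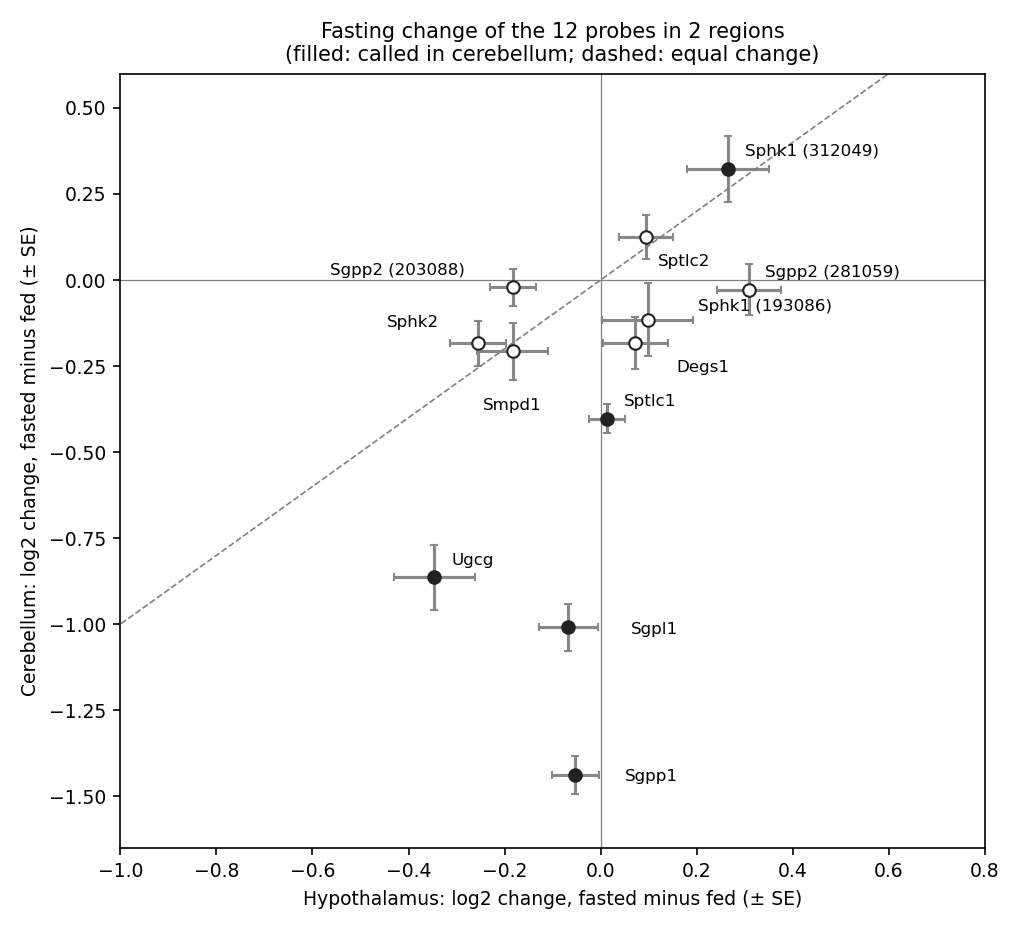
Fasting change of each of the 12 probes in hypothalamus (x axis, log2 fasted minus fed) against cerebellum (y axis, log2 fasted minus fed), with SE as error bars. Filled points were called in cerebellum and the dashed line marks equal change. Sgpp1, Sgpl1 and Sptlc1 lie near 0 on the x axis (-0.05, -0.07 and 0.01) and at -1.44, -1.01 and -0.40 on the y axis, and Ugcg lies below 0 on both.

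The cerebellum call of Sgpp1 was kept in 20 of 21 alternative settings, with changes from -1.57 to -1.18, and that of Sgpl1 in 20 of 21, from -1.14 to -0.67. Ugcg and Sptlc1 were each called in 18 of 21, with changes from -0.99 to -0.55 and from -0.53 to -0.25. Quantile normalization, which gives all arrays 1 distribution, ended the calls of Ugcg and Sptlc1, and a replicate block within the cerebellum arrays ended the calls of all 4. Each of the 4 kept its cerebellum call in 11 of 11 omissions of 1 array, although leaving out an array of fasted cerebellum leaves 1 array whose spread is assumed to equal that of the other groups.

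**Figure D3:**
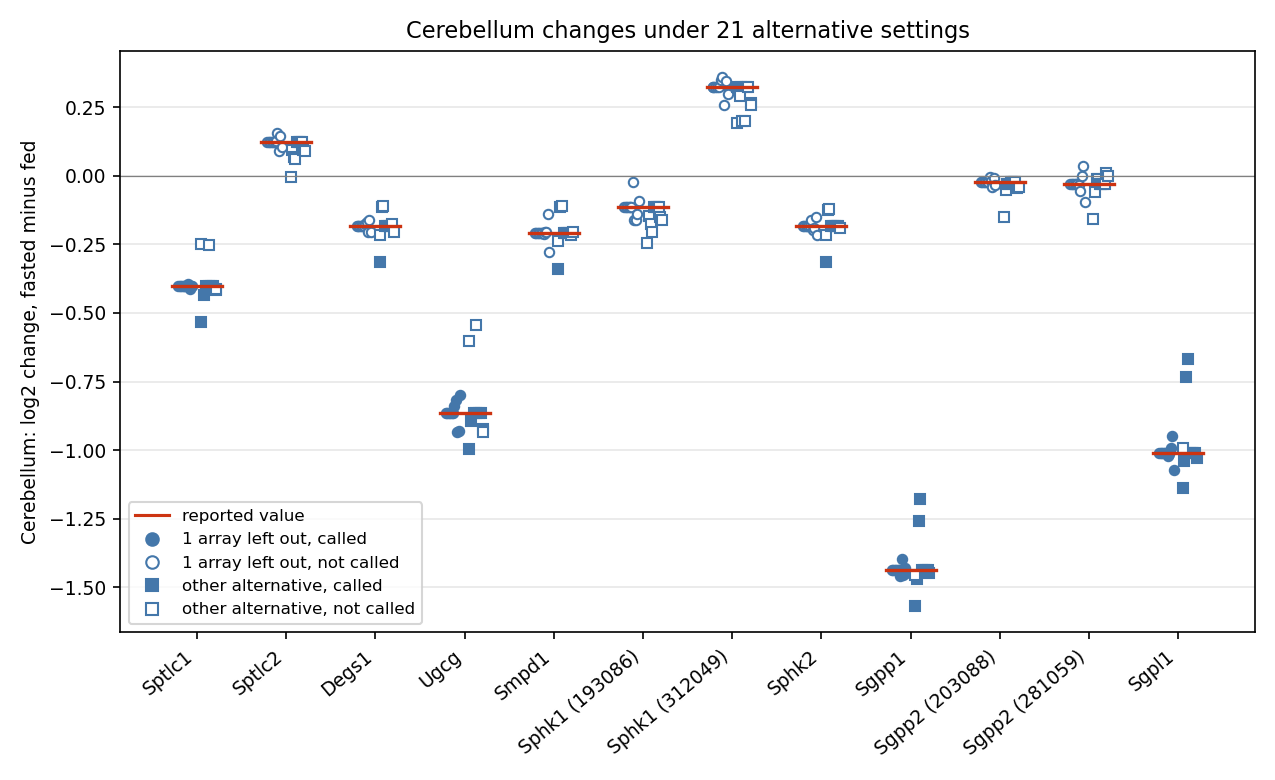
Cerebellum change (log2 fasted minus fed) of each of the 12 probes under 21 alternative settings, 11 of them with 1 array left out (circles) and the others with another scaling, floor, filter or model (squares). Filled symbols were called and red lines are the reported values. The spread of Sgpp1, from -1.57 to -1.18, and of Sgpl1, from -1.14 to -0.67, stays apart from 0, while both Sgpp2 probes stay between -0.16 and 0.04.

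Other genes of the pathway were counted from lists drawn up for their function, with earlier results of these data known. The lists leave out the 10 enzymes above. Of 72 listed genes 63 had a probe. In cerebellum 3 of them rose, 19 fell and 41 were not called, with a median change of -0.07, and in hypothalamus 3 rose, 8 fell and 52 were not called, with a median of -0.03. Beside these counts stand the shares over all probes given above, 20.9% called in cerebellum and 14.2% in hypothalamus. Those shares count every probe, while here each gene counts by its probe of smallest residual SD, so the 2 are not fully alike. Over all 83 probes of these genes 4 were called higher and 24 lower in cerebellum, and 3 higher and 10 lower in hypothalamus.

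Among receptors and transporters of sphingosine 1-phosphate, the ligand that Sgpp1 and Sgpl1 remove, 3 of 9 genes fell in cerebellum and 1 rose. S1pr1, the receptor that steers lymphocyte egress and vessel integrity, read 1.00, 1.02 and 0.885 fed against 0.352 and 0.348 fasted. Its change of -1.46 ± 0.09, or 2.76-fold lower, was close in size to that of Sgpp1, but S1pr1 also fell in hypothalamus, by 0.40 ± 0.08 on the log2 scale. That hypothalamus call was lost without fed array 1, fed array 2 or fasted array 3 of the region, with changes from -0.49 to -0.36 over the 11 omissions. The exporter gene Spns2 fell by 0.62 ± 0.06 on 1 probe, while its other probe gave 0.13 ± 0.08 and was not called. S1pr2 fell by 0.54 ± 0.08, with the other probe also called at -0.37 ± 0.10, and the lipid phosphatase gene Plpp2 rose by 0.25 ± 0.05. In hypothalamus S1pr1 and S1pr3 were the 2 called genes of this list, the latter at 0.35 ± 0.09.

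A list of 7 genes for the fate of the lyase product also held genes of fatty acid elongation. Of those elongation genes, Hacd3, which encodes a dehydratase, fell in cerebellum by 1.64 ± 0.06 log2. Its scaled ratios were 0.976, 1.07 and 1.00 fed against 0.333 and 0.319 fasted, and its hypothalamus change of -0.10 ± 0.05 was not called. Aldh3a2, which oxidises the fatty aldehyde, fell by 0.27 ± 0.07. In hypothalamus Hacd4 was called, at -0.30 ± 0.06, and its other probe gave -0.19 ± 0.07, not called.

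Upstream of ceramide, 3 of 11 genes beside Sptlc1, Sptlc2 and Degs1 fell in cerebellum on the probe shown. Over all 15 probes of these genes 3 were called lower and 1 higher there, and the highest change was 0.47. Kdsr, which acts directly after serine palmitoyltransferase, changed by -0.43 ± 0.05, and its other probe, at -0.11 ± 0.26, was not called. The ceramide synthase genes Cers6 and Cers5 changed by -0.41 ± 0.08 and -0.22 ± 0.06. In hypothalamus Cers5 rose by 0.21 ± 0.05 and Degs2 by 0.20 ± 0.04 (its other probe gave 0.18 ± 0.13, not called), while Sptssb, a small subunit of serine palmitoyltransferase, fell by 0.50 ± 0.07. Cers6 was called at -0.27 ± 0.07 on 1 probe in hypothalamus, while its other probe gave 0.23 ± 0.09 there and -0.23 ± 0.10 in cerebellum, neither called. Of the ceramidases and ceramide handlers, 1 of 7 was called in each region, the transfer protein gene Cert1 at 0.26 ± 0.07 in cerebellum and the ceramidase gene Acer3 at -0.27 ± 0.06 in hypothalamus. The other probes of these genes, at -0.25 ± 0.34 for Cert1 and 0.02 ± 0.10 for Acer3, were not called.

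Beyond Smpd1, 3 of 8 genes of sphingomyelin turnover fell in cerebellum and none of 8 was called in hypothalamus. Smpd4, a neutral sphingomyelinase gene, fell by 0.57 ± 0.06. Beyond Ugcg, 5 of 12 genes of glycosphingolipid synthesis fell in cerebellum, led by Ugt8a, which makes the galactosylceramide of myelin, at -0.82 ± 0.08, St3gal2 at -0.59 ± 0.07 and B4galt6 at -0.45 ± 0.08. In hypothalamus 2 of the 12 fell on the probe shown, Ugt8a by 0.63 ± 0.07 and Fa2h by 0.32 ± 0.05. Over all 15 probes of these genes 3 were called lower there, and the lowest change was -0.76. Of 9 genes that break glycosphingolipids down, 3 fell in cerebellum, led by Galc at -0.62 ± 0.11 and Neu3 at -0.44 ± 0.09, and Gm2a rose by 0.24 ± 0.07 on 1 probe but was called at -0.73 ± 0.08 on the other.

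Omission of 1 array in turn ended several of these smaller calls. In cerebellum the call was kept in 10 of 11 omissions for Cers6 and Neu3 (both lost without fasted array 1), 9 for Aldh3a2 (lost without fed array 2 or fasted array 2), 6 for Cers5, 5 for Cert1 and 3 for the higher Gm2a probe. In hypothalamus it was kept in 7 for Acer3 and Hacd4 (both lost without fed array 1 or 2 or fasted array 2 or 3), 6 for Cers6 and 5 for Cers5 and S1pr3. S1pr1, Hacd3, Spns2, Kdsr, Smpd4 and Ugt8a kept their cerebellum calls in 11 of 11.

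**Figure D4:**
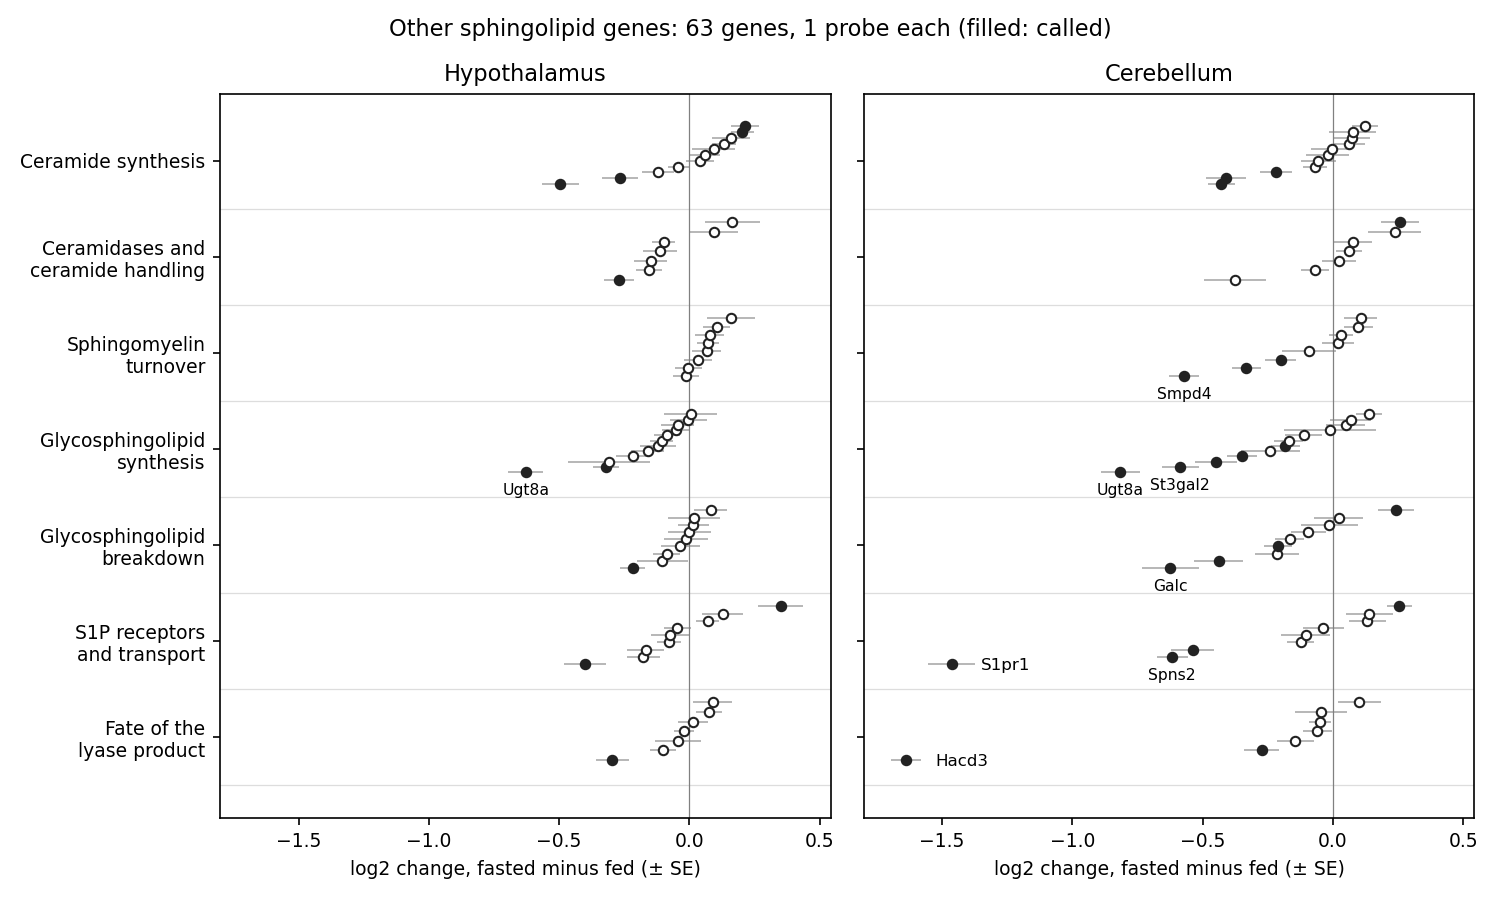
Log2 change, fasted minus fed, with SE as error bars, of 63 other sphingolipid genes in 7 lists, hypothalamus left and cerebellum right, 1 probe per gene. Filled points were called. S1pr1 (-1.46) and Hacd3 (-1.64) stand apart in cerebellum, and 19 filled points lie below 0 there against 8 in hypothalamus.

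The 5 genes whose log2 values over the 11 arrays were most like those of the Sgpp1 probe, by Pearson correlation, were Nfe2l1 (r = 0.998), Canx (0.998), Hacd3 (0.998), Ak4 (0.996) and Hcfc1 (0.996). Their cerebellum changes were -0.99 ± 0.05, -1.26 ± 0.06, -1.64 ± 0.06, -1.05 ± 0.06 and -0.83 ± 0.05 in that order, and their hypothalamus changes lay between -0.10 and 0.03. They were taken from 842 probes with 1 gene symbol that were called in cerebellum and whose SD over the 11 arrays was at least 50% of that of the Sgpp1 probe. The correlation rests on the 2 arrays of fasted cerebellum, shared by all probes, and is a description with no test. The other probes of Canx and Ak4 gave -0.13 ± 0.12 and -0.34 ± 0.16 in cerebellum and were not called.

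Markers of several cell types were called in cerebellum, counted here by the 1 probe per gene with the smallest residual SD. Over all probes 20.9% were called in that region, 9.66% higher and 11.2% lower, and these shares stand beside each count below. Of 9 astrocyte markers 4 fell and 1 rose. Over all 13 probes of these genes 4 were called lower and 3 higher, and the highest change was 1.44. The mean log2 value of the 9 markers went from between -0.01 and 0.03 on fed arrays to between -0.23 and -0.19 on fasted arrays. Of 8 markers of meninges and pericytes 3 fell and 1 rose, with array means of -0.06 to 0.02 fed and -0.32 to -0.27 fasted, and Ogn stood at -1.38 ± 0.06. Of 8 endothelial markers 3 fell and 1 rose, with array means of -0.09 to 0.04 fed and -0.27 to -0.11 fasted, and Pecam1 stood at -0.86 ± 0.12. Of 9 oligodendrocyte markers 4 fell and none rose, with means of -0.04 to 0.06 fed and -0.22 on both fasted arrays, and Ugt8a is on this list too. Array means of 4 choroid plexus markers, 3 of them called lower, went from between -0.03 and 0.02 to between -0.36 and -0.28. Of 8 neuronal markers 2 rose and 1, Syt1, fell by 1.27 ± 0.06, with array means of -0.07 to 0.01 fed and -0.13 to -0.12 fasted. None of 6 granule cell and 4 Purkinje cell markers was called on the probe shown. Array means were -0.08 to 0.05 fed and -0.12 to -0.11 fasted for granule cells. For Purkinje cells they were -0.04 to 0.04 fed and -0.04 to -0.02 fasted. On other probes, Cbln3 of granule cells was called in cerebellum at -0.81 ± 0.09 and Car8 of Purkinje cells at -0.44 ± 0.08. Of 7 microglial markers 2 fell, with array means of -0.04 to 0.01 fed and -0.17 to -0.15 fasted. Of 4 pituitary markers Prl alone was called in cerebellum, at 3.07 ± 0.07.

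For hypothalamus, 14.2% of all probes were called, 6.34% higher and 7.89% lower. In that region, where Ugcg and Sphk2 were lower, 4 of 9 oligodendrocyte markers fell, with array means of -0.02 to 0.08 fed and -0.30 to -0.23 fasted. Markers of meninges and pericytes went the other way there, with 5 of 8 higher and array means of 0.17 to 0.19 fasted against -0.08 to 0.03 fed. Of 6 granule cell markers 3 rose and 2 fell, and their array means reached 0.40 to 0.46 on fasted hypothalamus arrays against -0.05 to 0.22 on fed ones. Of 4 Purkinje cell markers 2 rose, with array means of 0.46 to 0.50 fasted against -0.10 to 0.02 fed. Microglial markers fell in 4 of 7 cases, with array means of -0.18 to -0.13 fasted against -0.06 to 0.05 fed, and neuronal markers in 3 of 8, with -0.21 to -0.17 against -0.03 to 0.05. Array means of 4 choroid plexus markers, 2 of them called lower, were -0.36 to -0.26 fasted against -0.04 to 0.07 fed. Astrocyte markers fell in 3 of 9 cases, with array means of -0.10 to -0.04 fasted against -0.03 to 0.06 fed. Over all 13 astrocyte probes 5 were called lower and 0 higher there, and the lowest change was -1.42. No endothelial marker of 8 was called. Of 4 pituitary markers 1 was called higher, Prl at 3.60 ± 0.06, and 1 lower, Tshb at -0.31 ± 0.07, and 2 were not called. The part of these cell types in the changes of Sgpp1, Sgpl1, Ugcg, Sptlc1 and Sphk2 was not tested.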

How the data were processed

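Per the labels, RNA of 6 mice per feeding state and region was pooled, labelled with biotin and hybridised to CodeLink mouse whole genome arrays. The authors deposited ratios: in both regions all 34999 probes had a fed median of 1 (tolerance 1e-06), so they had divided each probe by its fed median. The lowest ratio was 0.01 and 0 values were missing. The scale was taken as linear because the values are positive and centre on 1. No source used here names the array software, the background correction or the scaling.

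Each array was divided by its median, values under 0.1 were set to 0.1 (0 of the enzyme probes), and values were put on the log2 scale. The 4 group means were fitted with limma 3.58.1 (R 4.3.3; residual degrees of freedom 7, prior 1.82), whose moderated tests are two-sided. P-values were adjusted after Benjamini and Hochberg over 34999 probes and read at 0.05. Intervals are 95%. The number of arrays limits the precision. On simulated data of 34999 probes, 88% of 50 probes changed 2-fold were recovered for cerebellum, 92% for hypothalamus and 80% for the difference between regions. At 1.5-fold the shares were 54%, 76% and 38% in the same order, and at 1.2-fold they were 14%, 8% and 0%. Only 50 probes were changed at each size, while 4980 probes were called in hypothalamus and 7302 in cerebellum on the real arrays. With few changed probes the adjusted threshold is stricter, so these shares cannot be carried over to the real arrays. Changes of 1.19-fold for Sphk2 in hypothalamus and 1.25-fold for Sphk1 probe 312049 in cerebellum were called there.

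Genes were named from the platform annotation: 21590 probes had 1 symbol, 681 had several and 12728 had none. Of the named probes, 21462 matched the RefSeq table of GRCm38.p6 by Entrez ID. Promoter windows matched 10 of 10 genes, with 15 windows. A pathway gene with several probes is shown by its probe of smallest residual SD, and probes of the 10 enzymes are never averaged. The text names every probe of the 10 enzymes, from each other list up to 3 called genes with the largest change per comparison, the 5 genes most like Sgpp1, and up to 2 called markers per list. Plpp2 and Degs2 fall outside this rule and were chosen after their values were seen. The 10 enzymes and all lists were chosen with earlier results of these data known.

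Replicate numbers were not used to pair the arrays, since they number repeat hybridisations of 1 pool. Values of same-numbered arrays of different groups, as deviations from their group means, correlated at -0.04 to 0.10 (15 pairs). Those of different numbers correlated at -0.09 to 0.06 (30 pairs). Between fed and fasted hypothalamus, same-numbered arrays gave 0.07, 0.10 and 0.07 and the others -0.09 to 0.01, so arrays of a number were weakly alike there. Between fed hypothalamus and fasted cerebellum, same-numbered arrays gave -0.04 and -0.03. Other scalings, floors, filters, models and omissions of 1 array were tried as alternatives.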

Additional observations from a re-analysis of the deposited data

Results flagged for a closer look

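The fasting change differed between hypothalamus and cerebellum, by the interaction contrast of the limma fit with an adjusted p under 0.05, for 5 of the 12 enzyme probes. Hypothalamus minus cerebellum gave 1.39 log2 for Sgpp1, 0.94 for Sgpl1, 0.52 for Ugcg, 0.42 for Sptlc1 and 0.34 for Sgpp2 probe 281059. Over all probes 17.7% were called by this contrast, 8.66% higher and 9.01% lower. These genes had been chosen with such changes known, and arrays of a group repeat 1 pool. The calls and the omissions below are thus a description of these pools and carry no test. With 1 array left out in turn the call was kept in 11 of 11 omissions for Sgpp1, Sgpl1 and Sptlc1, 7 for Ugcg and 1 for the Sgpp2 probe. Both quantile normalizations ended the calls of Sgpl1 (lowest value 0.63) and Sptlc1 (lowest value 0.26) as well as those of Ugcg and the Sgpp2 probe, and kept that of Sgpp1.

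Of the other pathway genes named, the same contrast gave 1.54 for Hacd3, 1.06 for S1pr1, 0.57 for Smpd4, 0.57 for Spns2, 0.56 for Kdsr, 0.54 for Asah1, 0.52 for Galc, 0.47 for S1pr2, 0.45 for B4galt6, 0.44 for Neu3, 0.43 for Cers5, 0.43 for St3gal2, 0.32 for Samd8 and 0.30 for B4galnt1. It was negative for Sptssb (-0.49) and Cert1 (-0.41). The other probes of 3 of these genes had the opposite sign and were not called, with -0.35 ± 0.14 for Samd8, -0.23 ± 0.11 for Spns2 and 0.17 ± 0.46 for Cert1. Those of S1pr2 (0.24 ± 0.13) and Kdsr (0.24 ± 0.34) had the same sign and were not called. The call was kept in only 2 of 11 omissions of 1 array for Asah1 and Galc, 3 for Neu3 and 4 for B4galnt1. It was kept in 8 for Cert1 (lost without hypothalamus fed array 2, cerebellum fed array 1 or cerebellum fasted array 2), 9 for B4galt6 (lost without fasted array 2 of either region) and 10 for S1pr2 and St3gal2 (lost without cerebellum fasted array 2) and Samd8 (lost without cerebellum fasted array 1). Of the genes most like Sgpp1, Canx gave 1.20 (other probe 0.18 ± 0.16, not called), Ak4 0.96 (other probe 0.13 ± 0.22, not called), Nfe2l1 0.93 and Hcfc1 0.86. Groups of 2 or 3 arrays are too small for the check on single arrays that stand apart.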

How the results depend on the processing

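No called change of an enzyme probe turned its sign under any alternative tried. Of 732 values of these probes over the alternatives, 625 kept their side of the threshold or moved little, 85 lost a call, 7 gained one and 15 moved by more than the spread between arrays.

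Scaling by the 75th percentile moved the median change of all probes to -0.11 in hypothalamus and -0.12 in cerebellum, so calls shifted to lower. Then 5 enzyme probes were called in hypothalamus, 0 higher, and 7 in cerebellum, 0 higher; pathway genes called in hypothalamus went from 11 to 23, 0 of them higher, and calls over all probes went from 4980 (44.6% higher) to 9254 (7.72% higher) in hypothalamus and from 7302 (46.3% higher) to 11088 (15.6% higher) in cerebellum.

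Quantile normalization over all arrays or within regions left 0 and 0 enzyme probes in hypothalamus by limma (0 and 0 at an unadjusted p under 0.05), 2 and 2 in cerebellum and 1 and 1 between regions. It left 0 and 0 pathway genes in hypothalamus (5 and 5 unadjusted), 4 and 4 in cerebellum and 2 and 1 between regions, and 32 and 25, 441 and 466, and 153 and 128 of all probes. The fed arrays have narrower spreads than the fasted arrays, which this method makes equal.

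Fitting a region alone left 0 enzyme probes (5 unadjusted), 5 pathway genes and 2210 probes in all in hypothalamus. The replicate block within a region left 0 enzyme probes (5 unadjusted), 0 pathway genes (16 unadjusted) and 48 of all probes in hypothalamus, and 0 enzyme probes (6 unadjusted), 0 pathway genes (20 unadjusted) and 0 of all probes (8445 unadjusted) in cerebellum, where it has 1 residual degree of freedom. In the fit of all arrays the replicate block gave 5, 5 and 5 enzyme probes for hypothalamus, cerebellum and the difference.

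With 1 array left out, 0 to 5 enzyme probes were called in hypothalamus, 4 to 5 in cerebellum and 3 to 5 between regions. For pathway genes the counts were 3 to 11, 15 to 21 and 10 to 17, and for all probes 1940 to 5438, 4540 to 7549 and 4351 to 6307. The hypothalamus counts fell most without fed array 1, fed array 2, fasted array 2 and fasted array 3 of that region, to 0, 1, 0 and 0 enzyme probes, 5, 3, 4 and 3 pathway genes and 2442, 2165, 2329 and 1940 of all probes in that order. Without fasted cerebellum array 1, 4540 of all probes were called in cerebellum. Between regions, 3 enzyme probes (Sgpp1, Sgpl1 and Sptlc1) were left without hypothalamus fasted array 1, cerebellum fed array 1, cerebellum fed array 2 or cerebellum fasted array 2, and 11 and 10 pathway genes without cerebellum fed array 1 and cerebellum fasted array 2. Counting all 83 probes of the pathway genes gave 13, 28 and 21 calls in the same order.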
